A study of Homo sapiens with 18 samples.

Results

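NGFR/EGFR-low cells are the part of a culture of the established human melanoma line WM989 that was separated for low expression of the receptors NGFR and EGFR. Their response to EPZ5676, an inhibitor of the histone methyltransferase DOT1L, was read from 3 libraries of low cells treated with 4 µM EPZ5676 for 7 days, set against 3 libraries of low cells given DMSO, the solvent, for the same time. These 6 libraries were chosen by their labels alone from the 18 of the series, and all genes of their count table were examined. Every library was poly(A)-selected RNA of the same line, grown in the same medium. Used beside them were 3 EPZ5676 and 3 DMSO libraries of cells separated for high NGFR and EGFR, and 3 EPZ5676 and 2 of the 3 DMSO libraries of bulk cells that had not been separated. The labels give neither the gates of the sort nor its yield, and the labels do not say whether replicates are separate cultures; p-values therefore measure the spread among these libraries, which may be technical.

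DOT1L places methyl groups on a lysine in the globular core of histone H3, a mark found along the bodies of transcribed genes. It is best known from leukaemias with MLL fusions, where its inhibition lowers HOXA and MEIS1 transcription. WM989 cultures hold rare cells with high NGFR, EGFR and matrix gene expression, a state known for survival under targeted drugs, while most cells carry a pigmented melanocytic program directed by MITF and SOX10.

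The 6 low libraries held 14153173 to 23756040 gene counts. Levels are given as CPM, read counts scaled by library size and TMM factors; changes are log2 fold changes ± SE, and adjusted p-values are from edgeR's quasi-likelihood test with Benjamini-Hochberg correction over 16397 tested genes; a gene is called changed when its adjusted p is under 0.05. NGFR stood at 3.71, 6.99 and 1.07 CPM in EPZ5676 low libraries and at 0.647, 1.63 and 0.774 CPM in DMSO low libraries, against means of 726 CPM in EPZ5676 high and 572 CPM in DMSO high libraries, as the sort labels say. The melanoma markers were present in all 6 libraries, with SOX10 between 705 and 844 CPM and PMEL between 8076 and 10680 CPM. DOT1L itself stood at 123, 120 and 116 CPM with EPZ5676 and at 127, 129 and 126 CPM with DMSO (-0.09 ± 0.05, adjusted p = 0.367); the drug acts on the enzyme, so this transcript does not check the treatment labels. EPZ5676 low replicate 1 stood apart: 23.93% of its reads fell outside annotated features, while the other 5 low libraries had 13.2% to 15.17%, and 7SK, a nuclear RNA without a poly(A) tail, stood at 211 CPM in it and at 0.146 to 1.41 CPM in the other 5. DMSO bulk replicate 1 was kept out of the fits described here, other than where it is named as included. The reason was its NGFR level, which, scaled by library size alone, was 222 CPM against 12.8 and 9.37 CPM in the other DMSO bulk libraries.

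Called increases with EPZ5676 tended to lie on more weakly expressed genes than called decreases, which were smaller. Small changes pass the threshold more easily at high levels, where SE is smaller, so the levels of called genes depend partly on precision. Of the 16397 genes tested, 610 (3.72%) were higher and 418 (2.55%) lower with EPZ5676. The called increases had a median of 0.57 and lay on genes with a median mean level of 12.2 CPM. The called decreases had a median of -0.23 and lay on genes with a median mean level of 105 CPM, while the median over all tested genes was 19.05 CPM. At least 2-fold changes were nearly all increases, with 123 genes (0.75%) higher and 6 genes (0.0366%) lower. Among genes that reached 5 CPM in the higher group, 442 were called higher and 412 lower, so the numbers were nearly balanced there. Of these, 19 rose by at least 2-fold and 1 fell that far.

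The counts moved with single libraries. They were 376 higher and 191 lower without EPZ5676 low replicate 1, 286 and 125 without replicate 2, and 337 and 202 without replicate 3, while 715 genes were lower without DMSO low replicate 1. Without EPZ5676 low replicate 1, the one with the high no-feature share, 567 genes were called. They included 536 of the 1028 genes called with all 6 libraries, and the other calls were lost. With DMSO bulk replicate 1 in the estimate of the spread, 129 genes were higher and 59 lower. The fit of 17 libraries used below, which takes its spread from all groups, called 566 higher and 402 lower, but COL1A1, COL19A1, CNIH3, DKK1 and H2BC5 were among the genes that it did not call.

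**Figure D1:**
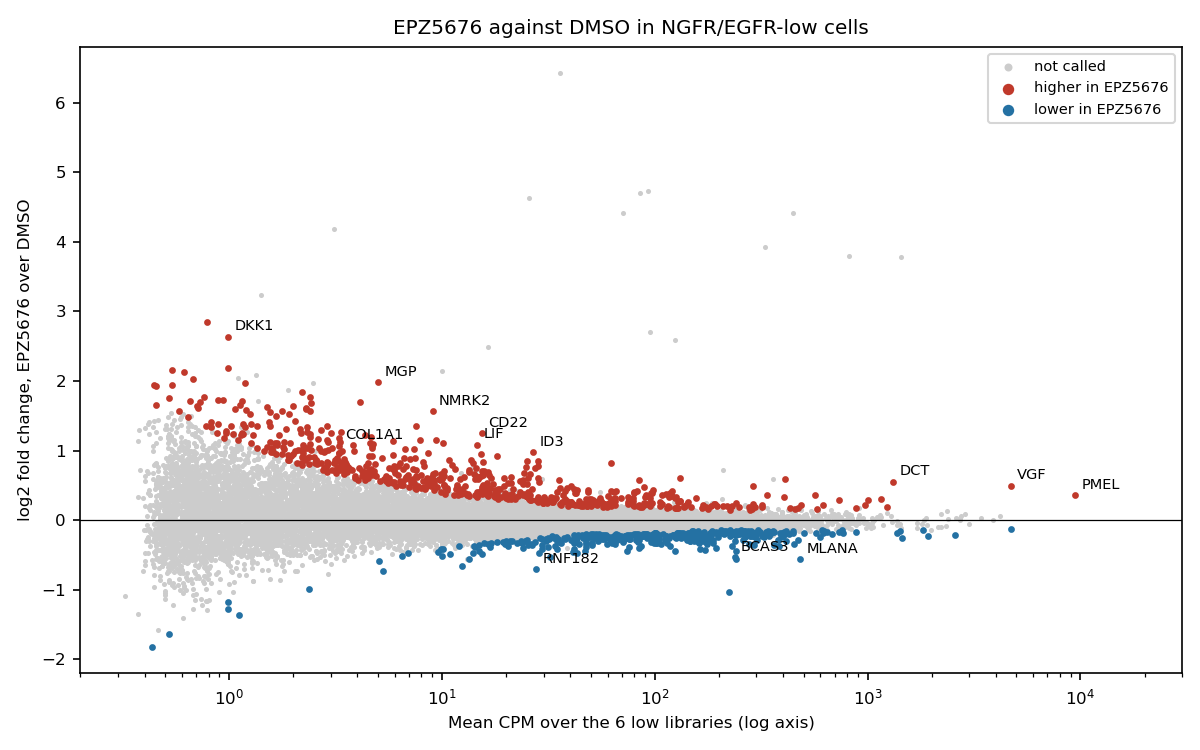
Log2 fold change of each tested gene in low cells (y axis, EPZ5676 over DMSO) against its mean CPM over the 6 libraries (log x axis); coloured points are called, grey ones are not. The 610 called increases reach further from 0 and lie at lower levels than the 418 called decreases, and the grey points above a fold change of 3 include 7SK, high in 1 library.

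Among genes with at least 5 CPM and no overlap between the groups, the increase was greatest for MGP (ENSG00000111341), which encodes matrix Gla protein, a secreted inhibitor of calcification. It stood at 6.29, 8.87 and 8.84 CPM in EPZ5676 libraries and at 1.49, 2.29 and 2.32 CPM in DMSO libraries (1.98 ± 0.19, adjusted p = 9.86e-08). The call of MGP held without each library in turn. Groups that do not overlap were a condition for this ranking and for that of the decreases. They occurred for 12.5% of all tested genes with EPZ5676 higher and for 11.3% with EPZ5676 lower. STUM, named after a fly gene of mechanosensation, stood at 6.36, 6.32 and 6.27 CPM against 2.24, 1.89 and 1.73 CPM with DMSO (1.69 ± 0.18). NMRK2, a nicotinamide riboside kinase of NAD synthesis, stood at 13.6, 14.01 and 12.8 CPM against 5.08, 4.54 and 4.05 CPM (1.57 ± 0.13, adjusted p = 5.33e-09). For both genes the 3 treated libraries lay close together and far above the DMSO ones. CD22, a sialic acid-binding receptor known from B cells, was at 19.9, 23.6 and 21.4 CPM with EPZ5676 and at 10.7, 7.65 and 9.10 CPM with DMSO (1.25 ± 0.11, adjusted p = 3.74e-08).

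The other increases at the top came from genes of varied roles. LIF, a cytokine of the interleukin 6 family, was at 19.9, 21.3 and 18.4 CPM with EPZ5676 and at 8.66, 9.08 and 10.3 CPM with DMSO (1.09 ± 0.11, adjusted p = 9.05e-08). The histone H2B gene H2BC21 was at 12.6, 9.83 and 10.2 CPM against 4.53, 4.44 and 3.73 CPM (1.35 ± 0.14). A second H2B gene, H2BC5, was at 9.50 CPM in EPZ5676 replicate 1 and at 5.23 and 4.86 CPM in the other two, against 2.49, 3.26 and 3.19 CPM with DMSO (1.09 ± 0.23). H2BC5 was set apart most in the library with the high no-feature share. The ubiquitin ligase gene TRIM67 rose by 1.19, the zinc finger gene ZNF114 by 1.16, SEL1L3 by 1.15 and the membrane-type metalloproteinase MMP15 by 1.14. LINGO1, a neuronal membrane protein that can pair with NGFR, rose by 1.12, SCUBE2, which helps to release Hedgehog ligands, by 1.10 and the calcium-binding protein EFHD1 by 1.08. Each increase named in this and the preceding paragraph kept its call in each of the 6 fits that left out 1 library.

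**Figure D2:**
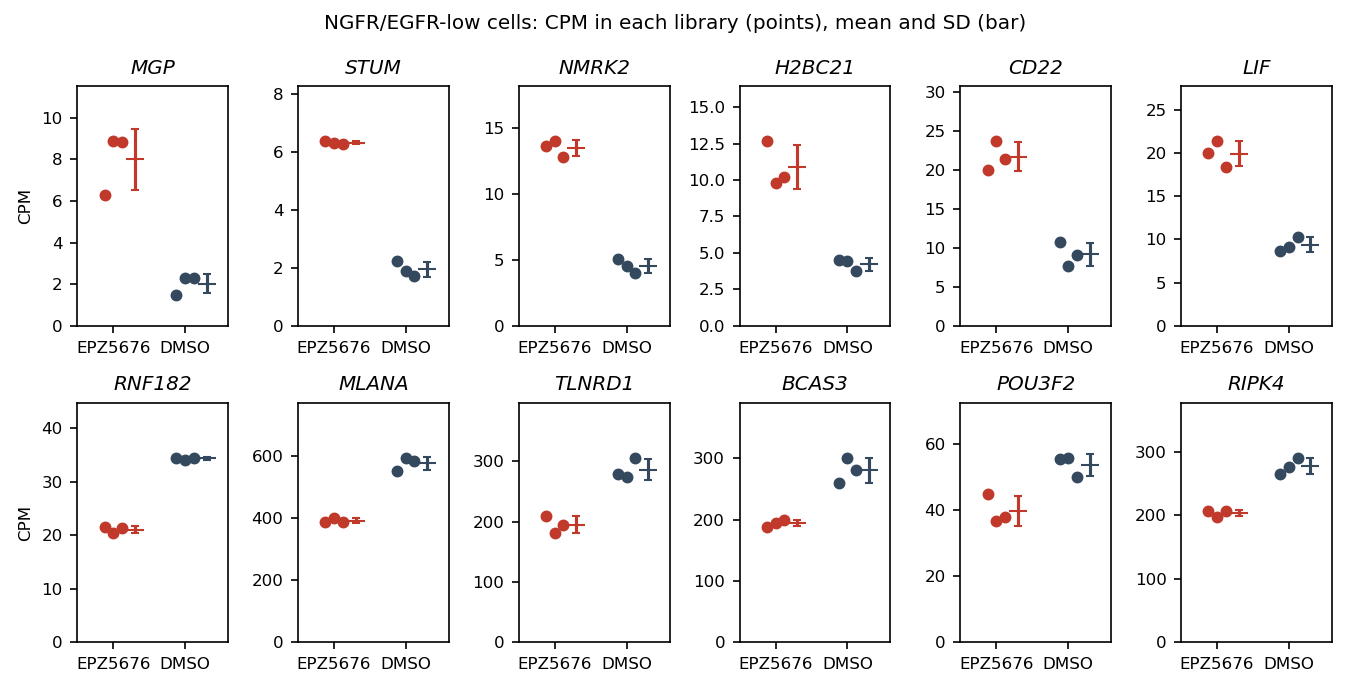
CPM in each low library (points), with mean and SD beside them, for 6 genes that rose (top) and 6 that fell (bottom); each panel has its own axis from 0, with EPZ5676 left and DMSO right. The 12 genes were chosen for groups that do not overlap, as 12.5% of all tested genes did with EPZ5676 higher and 11.3% with EPZ5676 lower.

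Decreases were smaller. RNF182 (ENSG00000180537), a ubiquitin ligase gene, fell to 21.5, 20.4 and 21.4 CPM with EPZ5676, against 34.5, 34.2 and 34.5 CPM with DMSO (-0.71 ± 0.08, adjusted p = 5.08e-07). MLANA (ENSG00000120215), a melanosome protein used as a melanoma marker, was at 385, 399 and 386 CPM against 551, 593 and 582 CPM (-0.56 ± 0.04, adjusted p = 3.66e-09). BCAS3 was at 189, 195 and 199 CPM against 260, 301 and 282 CPM (-0.53 ± 0.05). In each of these genes the treated libraries agreed to within a narrow range, below all DMSO libraries by the choice of genes. TLNRD1, an actin-bundling protein, fell by 0.55, the ephrin EFNA5 by 0.55, the potassium channel KCNN2 by 0.49, the activin-type receptor ACVR1C by 0.47 and the glutamate receptor subunit partner CNIH3 by 0.47. The serotonin receptor HTR7 fell by 0.46, the kinase RIPK4 by 0.45, POU3F2, a neural transcription factor also called BRN2, by 0.44 and the actin regulator WIPF1 by 0.44. COL19A1, KLHL25 and SLC16A6, also among the 15 greatest decreases, were not called without EPZ5676 low replicate 1. KLHL25 and SLC16A6 also lost the call without EPZ5676 low replicates 2 or 3 and in DESeq2. KLHL25 lost it without DMSO low replicate 3 too, and SLC16A6 without DMSO low replicates 1 or 2.

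The smallest p-value of all genes belonged to LHFPL3-AS1 (ENSG00000226869), an antisense transcript outside the rule for named genes and chosen after its values were seen. It was at 144, 143 and 151 CPM with EPZ5676 and at 306, 293 and 296 CPM with DMSO (-1.03 ± 0.04, adjusted p = 4.12e-15). No library came near those of the other group. Whether the counting used strand is not given in the sources used here, so its reads cannot be told apart from those of genes it overlaps.

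Pigmentation genes changed in both directions. For this and each later gene list, the counts stand against 3.72% higher and 2.55% lower over all tested genes. Of 30 listed genes 29 were tested, and 8 were higher and 4 lower (median 0.09, against 0.003 over all tested genes); without EPZ5676 low replicate 1, 2 or 3 the counts were 7 and 2 each. DCT, which acts on dopachrome in melanin synthesis, was at 1570, 1528 and 1607 CPM with EPZ5676 and at 1104, 1026 and 1074 CPM with DMSO (0.56 ± 0.04, adjusted p = 1.21e-09). PMEL, the fibril protein of the melanosome, was at 10620, 10620 and 10680 CPM against 8076, 8084 and 8617 CPM (0.37 ± 0.03, adjusted p = 1.92e-08). The treated libraries were above every DMSO library for both. TRPM1, a cation channel of melanocytes, rose by 0.49 ± 0.07, and the transcription factor IRF4 (0.35 ± 0.06) and APOE (0.36 ± 0.05) were also higher. MLANA was the greatest decrease of the list, and the myosin of melanosome transport MYO5A (-0.29 ± 0.05), the exchanger SLC24A5 (-0.22 ± 0.06) and the transporter SLC45A2 (-0.16 ± 0.05) were lower. The regulators themselves did not pass. MITF was at 582, 580 and 597 CPM against 649, 591 and 572 CPM (-0.04 ± 0.05, adjusted p = 0.694), with overlapping groups, and SOX10 at 816, 802 and 844 CPM against 783, 789 and 705 CPM (0.11 ± 0.05, adjusted p = 0.172). TYR, the first enzyme of melanin synthesis, was at 216, 227 and 239 CPM against 226, 215 and 195 CPM (0.10 ± 0.05, adjusted p = 0.283).

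MITF is known to bind E-boxes with the letters CATGTG upstream of pigmentation genes, and 3 promoters with these letters are shown because their genes went different ways. They are RefSeq windows on GRCh38.p14 from 250 bases before to 50 bases after the gene start, 5′ to 3′ on the gene's strand, with CATGTG on either strand (read as CACATG on the other) in capitals: TRPM1, called higher (chr15:31161111-31161410, minus strand), SLC24A5, called lower (chr15:48120740-48121039, plus strand), and TYR, not called (chr11:89177625-89177924, plus strand).
TRPM1: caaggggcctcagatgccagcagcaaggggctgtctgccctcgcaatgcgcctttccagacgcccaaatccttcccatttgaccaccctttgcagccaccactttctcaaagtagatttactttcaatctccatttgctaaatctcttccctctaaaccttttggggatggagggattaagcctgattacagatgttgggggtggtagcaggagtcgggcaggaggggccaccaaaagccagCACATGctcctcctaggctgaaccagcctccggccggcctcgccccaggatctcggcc
SLC24A5: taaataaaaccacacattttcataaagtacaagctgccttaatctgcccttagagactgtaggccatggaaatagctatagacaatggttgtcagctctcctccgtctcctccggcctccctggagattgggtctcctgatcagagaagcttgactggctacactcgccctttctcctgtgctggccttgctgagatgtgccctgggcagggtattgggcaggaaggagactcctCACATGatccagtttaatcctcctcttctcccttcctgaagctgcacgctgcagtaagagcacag
TYR: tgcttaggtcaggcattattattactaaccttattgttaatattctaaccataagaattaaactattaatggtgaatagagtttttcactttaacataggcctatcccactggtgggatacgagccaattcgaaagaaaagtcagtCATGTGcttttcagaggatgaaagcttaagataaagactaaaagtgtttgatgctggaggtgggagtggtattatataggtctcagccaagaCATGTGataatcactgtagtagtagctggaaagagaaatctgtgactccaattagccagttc
The letters occurred in 1 of 6 windows of the higher genes, 1 of 3 of the lower genes and 7 of 14 of the genes not called, the other listed genes having no window in the table, against 11.2% of all 27305 windows. The longer TCATGTG, which contains the E-box letters, occurred in 0 of 6, 1 of 3 and 4 of 14, against 2.99% of all windows. A match is only a run of letters, and no binding was measured.

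Extracellular matrix genes mostly rose. Of 38 listed genes 29 were tested, and 17 were higher and 1 lower, with a median of 0.49 over the tested members; without single libraries 13 to 17 were higher. THBS1, thrombospondin 1, was at 21.9, 20.9 and 17.7 CPM with EPZ5676 and at 9.71, 10.5 and 11.01 CPM with DMSO (0.95 ± 0.10, adjusted p = 7.45e-07). COL6A1 (ENSG00000142156), a chain of collagen VI, was at 134, 141 and 144 CPM against 113, 112 and 107 CPM (0.34 ± 0.05, adjusted p = 8.82e-05). COL6A3, its partner chain, was at 7.50, 8.66 and 9.72 CPM against 4.48, 4.23 and 5.23 CPM (0.90 ± 0.15). The groups did not overlap for any of the 3. SPARC, a collagen-binding matricellular protein, was at 1101, 1125 and 1102 CPM against 850, 942 and 914 CPM (0.30 ± 0.04), and TIMP3, an inhibitor of metalloproteinases, at 796, 807 and 827 CPM against 629, 665 and 687 CPM (0.29 ± 0.04). The fibrillar collagen COL1A1, weakly expressed in low cells, was at 4.22, 4.10 and 4.96 CPM against 1.74, 2.91 and 1.68 CPM (1.07 ± 0.22). Beyond the rule for named genes, and chosen after their values were seen, COL6A2 rose by 0.44, the gelatinase MMP2 by 0.74 and the laminin chain LAMA5 by 0.97, while the laminin chain LAMA1 was the one that fell, to 255, 253 and 265 CPM against 309, 296 and 304 CPM (-0.23 ± 0.04).

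High cells express many of these genes far above low cells, and the summed level of 18 rare-cell resistance markers was 5674, 6276 and 5461 CPM in EPZ5676 low libraries and 4155, 4087 and 4239 CPM in DMSO low libraries. Of these 18 markers 13 were tested, and 4 were higher and 0 lower, among them VGF, a secreted neuropeptide precursor, COL1A1 and VEGFC. VGF made up most of the sum, at 5440, 5938 and 5119 CPM against 3847, 3837 and 4004 CPM (0.50 ± 0.04, adjusted p = 1.51e-07). High cells did not express VGF above low cells. On the scale of the 17 libraries its mean was 2846 CPM in EPZ5676 high and 3607 CPM in DMSO high cells. It was 5391 CPM in EPZ5676 low and 3842 CPM in DMSO low cells, so the sum is no measure of the high state. The NGFR level differed between the treated replicates (3.71, 6.99 and 1.07 CPM). The difference of means in low cells amounted to 0.392% of the EPZ5676 high-cell level for NGFR, which was not called. This difference was 0.521% for COL1A1, 0.991% for THBS1 and 0.963% for MMP2. It amounted to 1.81% for COL6A1, 2.96% for COL6A3, 18.1% for SPARC and 42.1% for LAMA5. High cells did not express SPARC far above low cells. Its mean was 1088 CPM in low and 1093 CPM in high cells with EPZ5676, and 890 and 637 CPM with DMSO. LAMA5 was at 4.28 CPM in low and 5.035 CPM in high cells with EPZ5676, and at 2.16 and 7.01 CPM with DMSO. The collagen-binding integrin ITGA11, at a mean of 48.2 CPM in EPZ5676 high cells, was at 0.176 CPM in EPZ5676 low and 0.143 CPM in DMSO low cells. How much of any increase came from cells of the high state among the low cells was not tested, and in pooled cells a few strongly expressing cells and a small increase in every cell cannot be told apart.

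**Figure D3:**
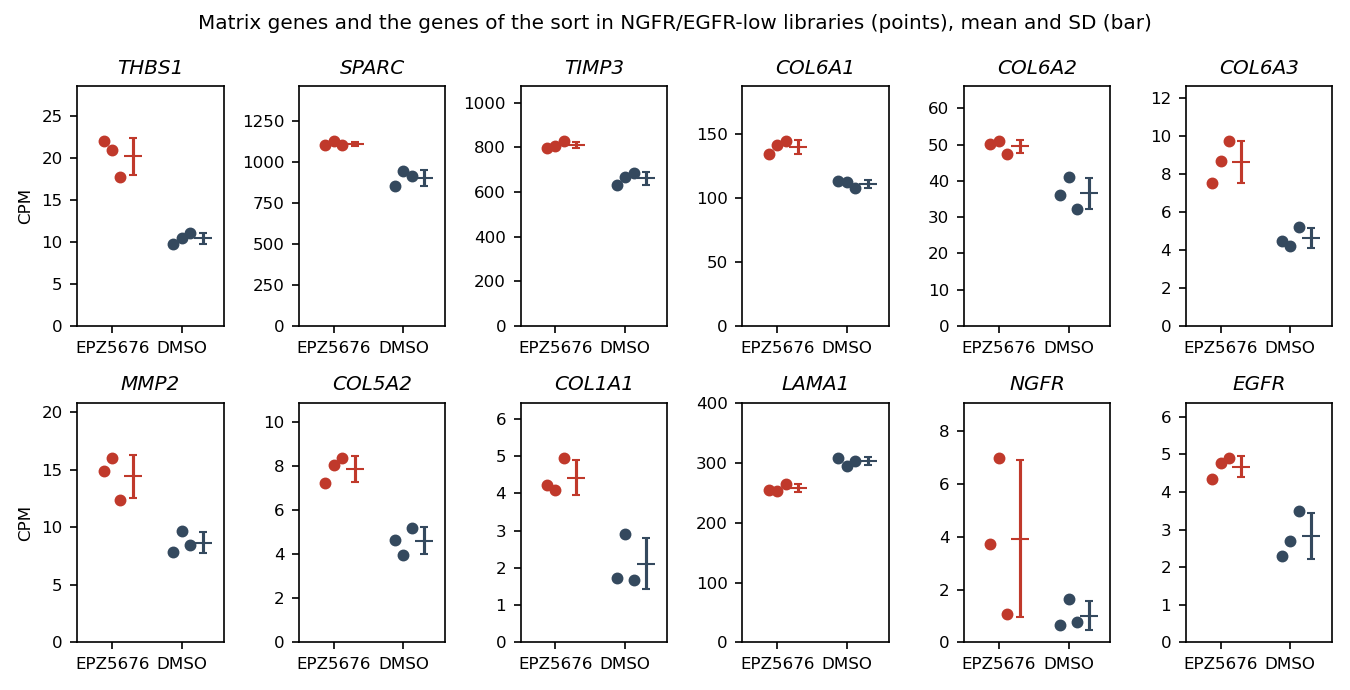
CPM in each low library (points), with mean and SD beside them, for 10 matrix genes and for NGFR and EGFR; each panel has its own axis from 0, with EPZ5676 left and DMSO right. The matrix genes keep the groups apart in every panel, with LAMA1 the one that is lower with EPZ5676, while NGFR spreads from 1.07 to 6.99 CPM among the treated libraries.

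Markers of other cell types were also examined. Of 9 fibroblast markers 5 were tested and 3 were higher, LUM, COL1A1 and DCN, which lost its call in 5 of the 6 fits without 1 library and in DESeq2, with a summed level of 99.0 to 103 CPM with EPZ5676 and 72.8 to 77.0 CPM with DMSO; COL3A1 and DPT had 0 counts in each EPZ5676 library. Of 14 leukocyte markers 3 were tested and 1 was higher, CD22, while CD3D and CD3E had 0 counts in all 6 libraries; the summed level was 21.9 to 27.2 CPM with EPZ5676 and 9.28 to 13.2 CPM with DMSO, most of it CD22 itself. Of 9 endothelial markers 4 were tested and 2 were higher, VWF (1.04 ± 0.21) and KDR (1.24 ± 0.36), the second not called without EPZ5676 low replicates 2 or 3 or DMSO low replicates 2 or 3; the sum was 36.8 to 38.0 CPM with EPZ5676 and 31.0 to 37.2 CPM with DMSO, and PECAM1 had 0 counts in all 6. Of 10 keratinocyte markers 1 was tested and 0 were called by edgeR (0 also at an unadjusted p under 0.05), with a sum of 26.2 to 34.1 CPM with EPZ5676 and 28.3 to 31.5 CPM with DMSO, and KRT5 had 0 counts in all 6.

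Some genes of growth factor signalling were higher. Of 44 receptor tyrosine kinases and ligands 32 were tested, and 8 were higher and 1 lower (median 0.31), where 3.72% and 2.55% of all tested genes were. MET, the receptor of hepatocyte growth factor, was at 28.7, 30.0 and 31.2 CPM with EPZ5676 and at 17.6, 18.6 and 19.9 CPM with DMSO (0.69 ± 0.08, adjusted p = 4.38e-06). EGFR, a gene of the sort, was at 4.36, 4.77 and 4.91 CPM against 2.29, 2.70 and 3.50 CPM (0.72 ± 0.19, adjusted p = 0.0209); its groups did not overlap, but the call was lost without EPZ5676 low replicates 2 or 3 or DMSO low replicates 1 or 2. NGFR overlapped between the groups (1.98 ± 0.88, adjusted p = 0.339). The listed gene FGF13 (1.03 ± 0.24) and the ligands KITLG (0.83 ± 0.21) and VEGFC (1.06 ± 0.28) were higher. Their means with EPZ5676 were 3.12, 4.38 and 2.41 CPM. FGF13 and KITLG lost the call without EPZ5676 low replicates 1 or 2, and VEGFC without replicates 2 or 3 or DMSO low replicates 1 or 3. IGF1R, the receptor of insulin-like growth factor, was the one that fell, to 94.3, 94.8 and 87.8 CPM against 118, 112 and 111 CPM (-0.30 ± 0.06). The count of higher genes was 5, 1 and 3 without EPZ5676 low replicates 1, 2 and 3, and 4 without DMSO low replicate 3.

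In the TGF-beta response, 4 of 20 tested genes were higher and 0 lower (median 0.23). ID3 and ID1, inhibitors of helix-loop-helix factors and targets of BMP signals, were higher: ID3 was at 40.9, 35.2 and 31.2 CPM with EPZ5676 and at 16.2, 18.97 and 18.9 CPM with DMSO (0.98 ± 0.10, adjusted p = 2.20e-07), and ID1 rose by 0.67 ± 0.11. For ID3 every treated library was above every DMSO library.

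In the retinoic acid pathway, 5 of 11 tested genes were higher and 0 lower (median 0.28); 3 were higher without EPZ5676 low replicates 1 or 3. CYP26B1, which breaks down retinoic acid, was at 9.86, 8.99 and 10.2 CPM with EPZ5676 and at 5.53, 4.79 and 5.28 CPM with DMSO (0.90 ± 0.14, adjusted p = 7.95e-05). TGM2, a transglutaminase induced by retinoids, was at 16.5, 17.1 and 20.6 CPM against 9.81, 11.8 and 10.6 CPM (0.75 ± 0.11), and the receptor RXRG rose by 0.28 ± 0.06. The 3 treated libraries lay above the DMSO libraries for each gene.

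Of 22 tested neural crest and glia genes 6 were higher and 1 lower (median 0.07), 4 and 0 without EPZ5676 low replicates 1 or 2. MBP, myelin basic protein, was at 340, 337 and 334 CPM with EPZ5676 and at 246, 249 and 227 CPM with DMSO (0.49 ± 0.05, adjusted p = 6.89e-08), and the adhesion molecule L1CAM rose by 0.30 ± 0.04. In axon guidance 9 of 34 tested genes were higher and 4 lower (median 0.12): PLXNA2, a semaphorin receptor, SEMA3D, a semaphorin, and EPHA2, an ephrin receptor, rose by 0.66, 0.90 and 1.02, while the semaphorin co-receptor NRP2 fell by 0.28. Without EPZ5676 low replicates 1, 2 or 3, 5, 6 and 5 were higher and 2 each lower.

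Of the WNT pathway list, 4 of 23 tested genes were higher and 2 lower (median 0.25), 2 and 1 without EPZ5676 low replicate 1 and 2 and 0 without replicate 2. DKK1, a secreted antagonist of WNT receptors, was at 2.57, 1.63 and 0.923 CPM with EPZ5676 and at 0.348, 0.357 and 0.0910 CPM with DMSO (2.64 ± 0.47, adjusted p = 0.000693), and NOTUM, an enzyme that inactivates WNT ligands, at 1.79, 1.51 and 1.51 CPM against 0.498, 0.714 and 0.364 CPM (1.59 ± 0.36, adjusted p = 0.00574). The groups did not overlap for either gene.

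A minority of the genes of DNA replication and of glycolysis were lower, by small amounts, where 2.55% of all tested genes were lower. Of 42 tested DNA replication genes 7 were lower and 0 higher (median -0.12), but only 1, 2 and 1 were lower without EPZ5676 low replicates 1, 2 and 3, 3 without DMSO low replicate 3 and 4 without DMSO low replicate 2, and 12 were without DMSO low replicate 1. MCM2, a subunit of the replicative helicase, was at 247, 252 and 248 CPM with EPZ5676 and at 279, 289 and 288 CPM with DMSO (-0.20 ± 0.04, adjusted p = 0.00551), and kept its call without each library. Of 52 tested mitosis genes 1 was lower and 0 higher (median 0.01), MAD2L1, whose call was lost without any of the 3 EPZ5676 libraries or DMSO low replicate 3. Of 29 tested glycolysis and hypoxia genes 9 were lower and 0 higher (median -0.07), and 3 and 2 were lower without EPZ5676 low replicates 1 and 2. Hexokinase HK2 was at 424, 404 and 442 CPM against 530, 506 and 516 CPM (-0.29 ± 0.05, adjusted p = 0.000158), and the peptide hormone gene ADM at 90.5, 86.6 and 97.1 CPM against 112, 116 and 116 CPM (-0.32 ± 0.06). For both genes all treated libraries were below all DMSO libraries.

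Regulators of the cell cycle and of cell death changed singly, where 3.72% of all tested genes were higher and 2.55% lower. CDKN2A, a locus of inhibitors of CDK4 and of MDM2, was at 203, 202 and 198 CPM with EPZ5676 and at 242, 261 and 278 CPM with DMSO (-0.37 ± 0.05, adjusted p = 9.55e-06), and CDK2 rose by 0.22 ± 0.04. Of 28 tested p53 targets 6 were higher and 2 lower (median 0.01), 4 and 0 without EPZ5676 low replicates 1 or 2, 4 and 1 without replicate 3, and 3 and 1 without DMSO low replicate 2. BBC3, the cell death inducer PUMA, was at 15.9, 14.2 and 15.1 CPM against 11.1, 10.2 and 10.8 CPM (0.49 ± 0.10, adjusted p = 0.00412), the kinase PLK2 rose by 0.32 ± 0.06 and the anti-proliferative gene BTG2 by 0.73 ± 0.15. In the BCL2 family 2 of 16 were higher and 2 lower, among them the survival gene BCL2A1, which fell by 0.40; without EPZ5676 low replicate 2, 1 was higher and 1 lower. Of 29 tested lysosome genes 5 were higher and 0 lower (median 0.06), and 2 were higher without EPZ5676 low replicates 2 or 3 and 3 without replicate 1; cathepsin D, CTSD, stood out at 496, 488 and 493 CPM against 320, 335 and 327 CPM (0.59 ± 0.04, adjusted p = 1.21e-09). PPARGC1A, a coactivator of mitochondrial gene expression, was at 26.2, 25.0 and 25.7 CPM against 18.9, 15.2 and 15.9 CPM (0.62 ± 0.09, adjusted p = 7.34e-05), while 3 of 32 tested oxidative phosphorylation genes, PPARGC1A included, were higher and 0 lower, and 1 was higher without EPZ5676 low replicates 2 or 3 or DMSO low replicate 3 and with 17 libraries.

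Single genes were called among the partners of DOT1L, its targets known from leukaemia and other histone methylation enzymes, where 6.27% of all tested genes were called in either direction. Of 8 listed partners 7 were tested and 1 was higher: AFF3, a scaffold related to those of the elongation complex, at 22.2, 21.4 and 19.9 CPM with EPZ5676 and 15.2, 16.3 and 15.02 CPM with DMSO (0.45 ± 0.09, adjusted p = 0.00257). Of 14 tested HOXA, MEIS and PBX genes 1 was called, MEIS3, which was higher (0.47 ± 0.13, adjusted p = 0.0297) and lost its call without EPZ5676 low replicates 2 or 3 or DMSO low replicates 2 or 3. Of 40 tested histone methylation enzymes 1 was higher and 2 lower; the higher one, KMT5B, lost its call without each library in turn, and 1 was lower without EPZ5676 low replicates 1 or 2. The methyltransferase EZH2 stood at 131, 122 and 127 CPM against 149, 146 and 149 CPM (-0.23 ± 0.05), a call lost without EPZ5676 low replicate 2. Among 50 ribosomal protein genes 0 were called by edgeR and 0 by DESeq2, with 3 at an unadjusted p under 0.05, although 12 were lower without DMSO low replicate 1.

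**Figure D4:**
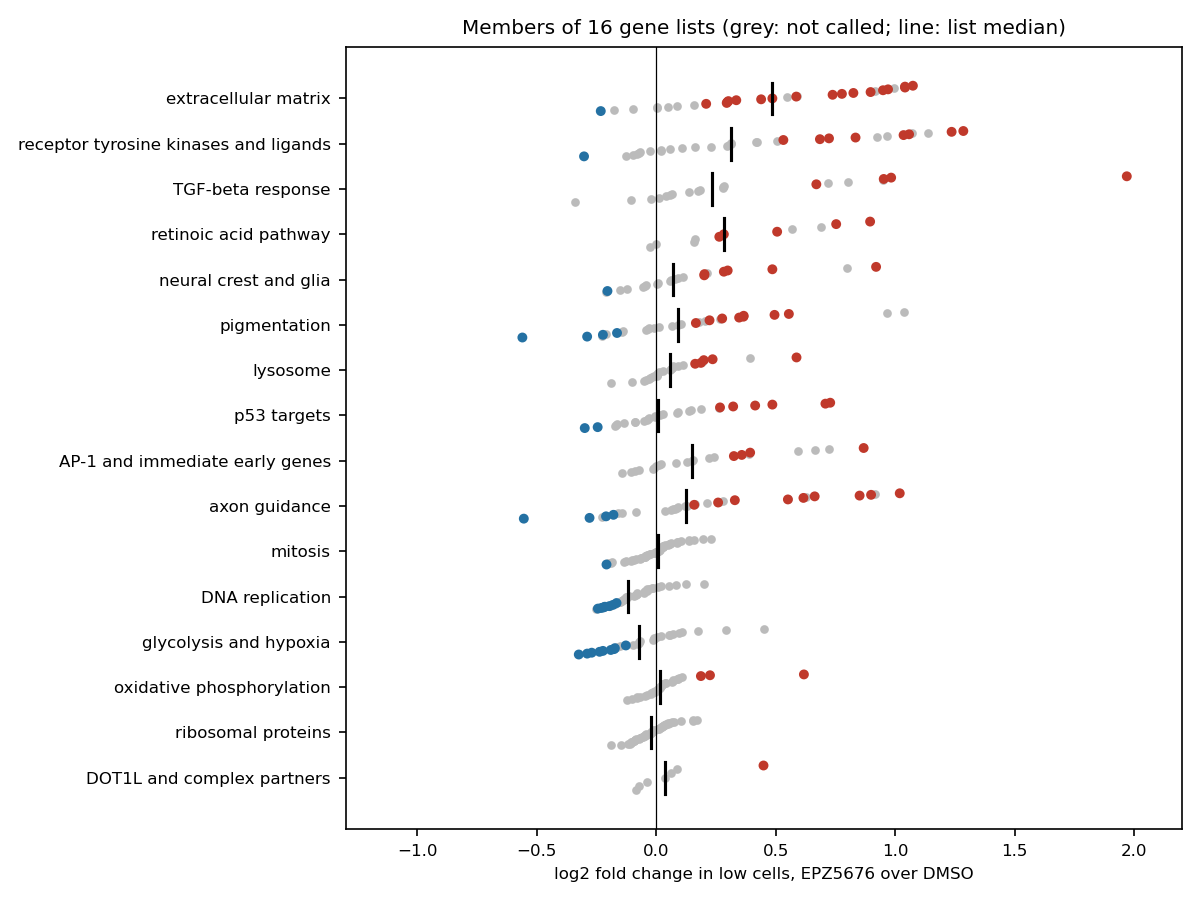
Log2 fold change in low cells (x axis, EPZ5676 over DMSO) of every tested member of 16 gene lists, 1 list a row; red and blue points are called higher and lower, grey ones are not called, and the black line is the list's median. The median lies at 0.49 for the extracellular matrix and at -0.12 for DNA replication, and 0 members are coloured among ribosomal proteins.

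The response of low cells was next set against that of high cells, in a fit of 17 libraries. The difference between both responses (low minus high) was called for 1072 of 18784 genes (5.71%), with 491 (2.61%) above 0 and 581 (3.09%) below 0. Of the 610 genes higher in low cells, 188 (30.8%) had a called difference; 182 were also called higher in high cells, where 5.85% of all genes were, and 51 were called lower there, where 4.89% were. Of the 418 genes lower in low cells, 133 (31.8%) had a called difference, and 75 were called lower and 33 higher in high cells. The 6 libraries with a no-feature share over 16% were EPZ5676 low 1, high 1 and 2, bulk 1 and 3, and DMSO high 3. High shares thus lay mostly in treated libraries. A fit without them leaves EPZ5676 high replicate 3 alone in its group, so its count of differences cannot check the 1072.

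Several matrix genes had opposite signs in low and in high cells. Of 32 tested members of the list 14 had a difference above 0 and 2 below 0, and 13 of the 14 were above 0 in low cells and below 0 in high cells. Over all tested genes, 398 of the 491 called differences above 0 had these signs, so the signs are not particular to the list. COL6A1 changed by 0.33 in low cells and by -0.92 in high cells, a difference of 1.24 (adjusted p = 3.46e-14). In high cells its level was 1532 CPM with EPZ5676 and 2890 CPM with DMSO on the scale of that fit, so treated low cells at 137 CPM remained far below treated high cells. COL6A3 (difference 1.33, adjusted p = 4.11e-08) and COL1A1 (2.17, adjusted p = 0.00221) had the same signs. THBS1 was higher in both states, by 0.94 in low and 0.82 in high cells, and SPARC rose more in high cells (0.78) than in low cells (0.29), a difference of -0.49 (adjusted p = 1.56e-06). LAMA1 changed by -0.24 in low and 0.29 in high cells.

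Of the other named genes, several of them named for the small p of this difference, LIF changed by 1.08 in low and -0.64 in high cells (difference 1.71, adjusted p = 2.35e-13), MBP by 0.48 and -0.58 (1.05, adjusted p = 2.01e-13), and the membrane-curving protein BIN1 by 0.88 and -0.95 (1.83, adjusted p = 2.19e-10). EGFR changed by 0.71 in low and -0.28 in high cells (0.99, adjusted p = 0.000279). The EGFR mean was 4.59 CPM in low and 62.5 CPM in high cells with EPZ5676, and 2.79 CPM in low and 75.8 CPM in high cells with DMSO. The MBP mean was 330.5 CPM in low and 325 CPM in high cells with EPZ5676, and 237 CPM in low and 485 CPM in high cells with DMSO. The sulfotransferase CHST1 also differed (1.01, adjusted p = 5.72e-08), as did the WNT receptor FZD1 (0.94).

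Among pigmentation genes, 11 of 29 tested members had a called difference below 0, a more positive response in high cells, and 2 had one above 0. DCT rose by 0.55 in low and by 1.37 in high cells (difference -0.82, adjusted p = 9.18e-11), and PMEL by 0.36 and 0.72 (-0.36, adjusted p = 0.00334). MLANA fell by 0.57 in low cells and had a value of 0.14 in high cells (-0.71, adjusted p = 0.000104), and MITF had values of -0.05 and 0.31 (-0.36, adjusted p = 0.00200). The difference was also below 0 for the transcription factor ETS1 (-0.62, adjusted p = 5.72e-08) and for 16 of 42 DNA replication genes, all 16 below 0 in low and above 0 in high cells, with 0 above 0. Over all tested genes, 461 of the 581 called differences below 0 had these signs.

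**Figure D5:**
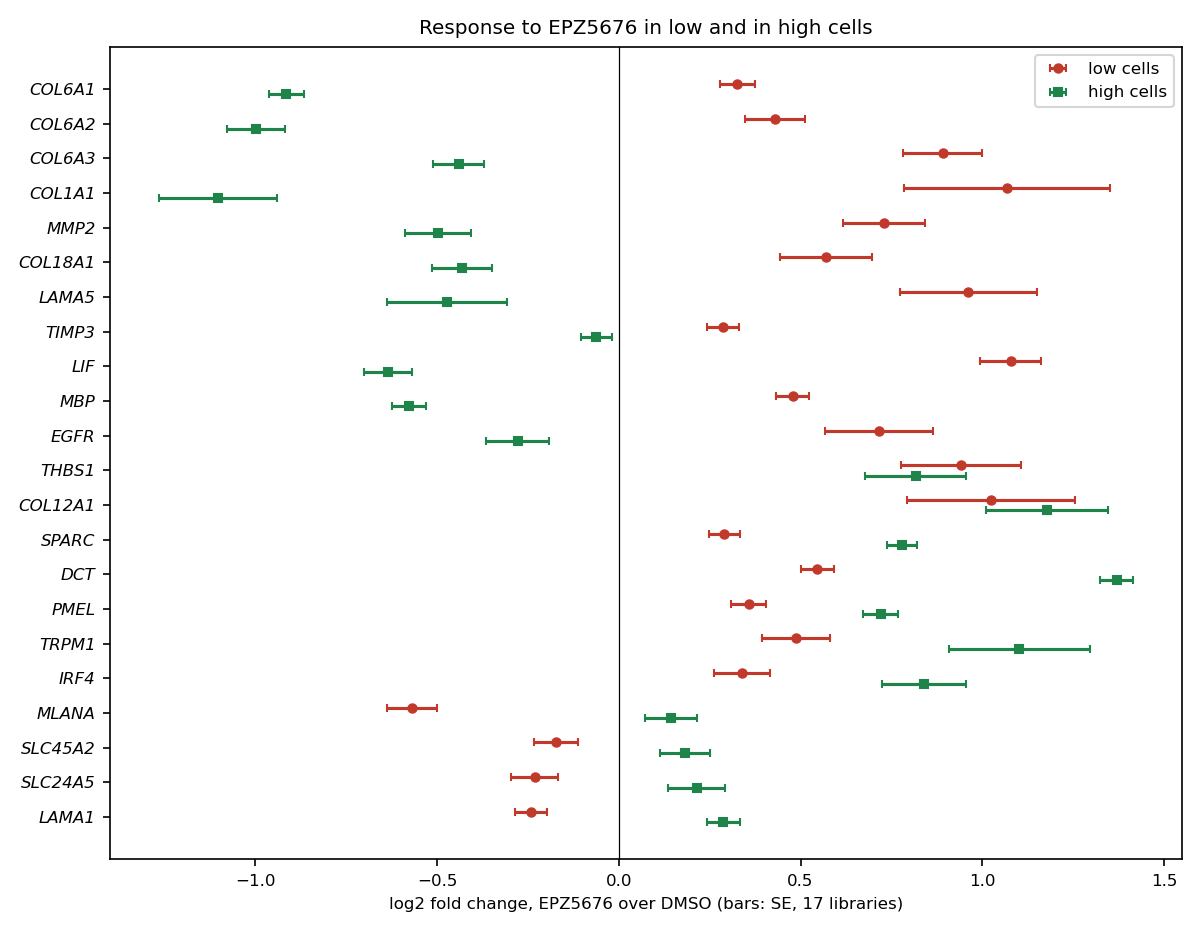
Log2 fold change of 22 genes with EPZ5676 over DMSO (x axis, bars are SE, 17 libraries), in low cells (red circles) and in high cells (green squares). Collagen VI genes, COL1A1, LIF, MBP and EGFR lie right of 0 in low and left of 0 in high cells, DCT and PMEL lie right of 0 in both, and MLANA and LAMA1 lie left of 0 in low and right of 0 in high cells.

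The direction of change was mostly shared with bulk cells. In bulk cells 2.93% of the 18784 tested genes were called in either direction. Of the 610 genes higher in low cells 595 (97.5%) were above 0 in bulk cells, where 48.6% of all genes were, and 243 were called higher, where 1.98% of all tested genes were. Of the 418 lower genes 412 (98.6%) were below 0, and 119 were called lower, where 0.953% were. The difference between the responses (low minus bulk) was called for 0 of 18784 genes by edgeR, by DESeq2 and by limma-voom, with 575 genes at an unadjusted p under 0.05 and a smallest adjusted p of 0.320; with 2 DMSO bulk libraries this does not show that the responses are alike. In this fit CD22 had a change of 1.24 in low and 1.28 in bulk cells, MGP of 1.98 and 1.63, MLANA of -0.57 and -0.47, and LHFPL3-AS1 of -1.04 and -1.05.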

How the data were processed

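The authors deposited 1 table of unnormalised counts, by Ensembl gene. The submitters' processing notes name STAR, HTSeq and the build hg19, with versions, annotation release and strand setting not given in the sources used here. It listed 63677 genes and 5 summary lines, which stayed out of library sizes and tests; reads on no feature made up 13.2% to 23.93% of the 6 low libraries. Symbols came from a name table, or from GENCODE for 345 genes, and 11151 genes stayed unnamed. Mitochondrially encoded genes had 0 counts. No pair of low libraries was identical.

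Counts of the 6 low libraries were filtered with filterByExpr, scaled with TMM factors and fitted in edgeR 4.0.16 (R 4.3.3) with the robust quasi-likelihood test; SE was taken from its F statistic. Differences between responses came from 6 group means over 17 libraries, all but DMSO bulk replicate 1; values of high cells, and percentages of their level, are on the scale of that fit. CPM depends on TMM scaling, and precision on the 14153173 to 23756040 counts per library. Marker sums and the NGFR levels of DMSO bulk libraries use library size alone. Scripts were tested on simulated data.

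The members, the 39 gene lists (1010 symbols, 6 without a match) and the tests were chosen with earlier results of these data known. Named genes were NGFR, EGFR and DOT1L, the 15 largest called changes per direction with at least 5 CPM and no overlap (without antisense, clone-named and unnamed transcripts and pseudogenes), up to 4 called members per list with the smallest p, defining melanoma markers and the 8 differences between responses with the smallest p. List members named beyond this were chosen after their values were seen. Alternatives were RLE or library size scaling, no filter or 5 CPM, DESeq2 1.42.0, limma-voom 3.58.1, estimation that was not robust, a replicate block, the no-feature share as covariate, a prior count of 0.5, fits over 17 or 18 libraries, and leaving out each low library or the 6 with a no-feature share over 16%; the covariate in 17 libraries was added after seeing the data. Promoters were read from RefSeq tables. Some listed genes are not reported here. Figures used Python 3.11.15 and matplotlib 3.10.9.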

Additional observations from a re-analysis of the deposited data

Results flagged for a closer look

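The response to EPZ5676 differed between low and high cells, by the test of that difference (edgeR, adjusted p under 0.05), for 50 of the 133 named genes, against 5.71% of all 18784 genes. The named genes include 8 chosen for the smallest p of this same difference, so the count is a description. Low minus high was above 0 for 30 and below 0 for 20. All values are differences of log2 fold changes.

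Above 0 were the matrix genes COL6A1 (1.24), COL6A3 (1.33), COL1A1 (2.17) and TIMP3 (0.35). Among receptors and ligands the difference was 1.71 for LIF, 0.99 for EGFR, 0.85 for EPHA2, 0.94 for FZD1, 1.16 for VEGFC, 0.84 for CSF1 and 1.74 for KDR. Neural and secreted products with a difference above 0 were MBP (1.05), L1CAM (0.28), VGF (0.83), MAPT (0.51) and VWF (1.05). Targets of MAPK and immediate early signals were ETV1 (0.68), DUSP4 (0.36), PHLDA1 (0.25) and NR4A1 (0.42), and the retinoic acid list gave TGM2 (0.61) and RXRB (0.28). BIN1 (1.83), CHST1 (1.01), SEL1L3 (1.19), CDKN1A (1.48), MEIS3 (0.91), BCL2L11 (0.57), HERPUD1 (0.30) and HMGCS1 (0.36) complete the 30.

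Below 0 were the pigmentation genes DCT (-0.82), MLANA (-0.71), PMEL (-0.36) and MITF (-0.36). Transcription factors and chromatin assembly genes were ETS1 (-0.62), TEAD4 (-0.52), POU3F2 (-0.52), CHAF1A (-0.29) and CHAF1B (-0.31), and helicase subunits were MCM2 (-0.28) and MCM7 (-0.19). SPARC (-0.49), RNF182 (-0.38), KCNN2 (-1.20), TLNRD1 (-0.39), BID (-0.49), IFI16 (-0.34), ITGB3 (-0.30), HK2 (-0.25) and SLC2A1 (-0.31) complete the 20.

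Reads on no annotated feature made up 23.93% of EPZ5676 low replicate 1, above the 15.17% of the highest DMSO low library. They stayed out of all gene counts, and their share entered only alternative fits.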

How the results depend on the processing

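The 610 increases and 418 decreases became 385 and 189 with the no-feature share as a covariate, and 129 and 59 with DMSO bulk replicate 1 in the spread of 18 libraries. Leaving out single low libraries gave 286 to 755 increases and 125 to 715 decreases. The 123 genes at least 2-fold higher became 11 with a mean of at least 5 CPM, 44 with 18 libraries and 79 to 157 without single libraries. The 6 at least 2-fold lower became 1 with 5 CPM, 2 with DESeq2, 3 with the covariate, 0 with 18 libraries and 1 to 4 without single libraries. The 1072 differences between low and high responses became 58 with 18 libraries and 284 without the 6 libraries with a no-feature share over 16%. The fit without these 6 libraries leaves EPZ5676 high replicate 3 alone in its group, so its count cannot check the 1072. The 0 differences between low and bulk responses became 4 without a filter, and 0 to 1 without single low libraries, the 1 without EPZ5676 low replicate 2. Fits without a library hold fewer samples and test more genes; the other causes were not tested. MITF changed sign, from -0.085 to 0.010 over the fits without single libraries, never being called.

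No pairing by replicate number was seen: deviations of same-numbered libraries correlated at -0.001, 0.074 and -0.058. With 3 libraries a group this does not show that none exists. With the replicate number as a block, 1178 genes were called, 1023 of them among the 1028. Of 2502 alternative values of the named genes 2139 kept direction and side of the threshold, 356 lost the call, 6 gained it and 1 changed sign. Of 127 called named genes 75 kept the call without each library in turn. Increases under 5 CPM are limited by depth, and 3 libraries a group limit all calls.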

Other observations

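Genes not described above moved singly. Counts of the lists in this section stand against 3.72% higher and 2.55% lower over all tested genes. IFI16, a sensor of DNA, was at 256.5, 249.7 and 261 CPM with EPZ5676 and at 333, 326 and 321 CPM with DMSO (-0.35 ± 0.04, adjusted p = 5.88e-06 in edgeR), with no overlap between the groups. Of 32 tested interferon response genes 1 was higher and 2 lower; 0 were higher without EPZ5676 low replicate 1, and 1 was lower without EPZ5676 low replicates 2 or 3 or DMSO low replicate 2. Of 18 tested genes of MHC class I presentation 0 were called by edgeR, DESeq2 or limma-voom (1 at an unadjusted p under 0.05), and of 4 of class II 1 was higher, HLA-DPA1, which lost its call without any EPZ5676 library or DMSO low replicate 3. CCN2, a matricellular target of YAP and TEAD, was at 38.0, 41.9 and 38.6 CPM against 33.6, 26.5 and 29.7 CPM with DMSO (0.40 ± 0.08, adjusted p = 0.00175 in edgeR). Its list held 2 higher and 4 lower genes of 19, and without single libraries 1 to 2 higher and 1 to 7 lower, the 7 without DMSO low replicate 3. SYT7, a synaptotagmin of vesicle release, was at 18.2, 17.1 and 14.4 CPM against 10.6, 10.8 and 9.19 CPM with DMSO (0.69 ± 0.11, adjusted p = 0.000179 in edgeR). Of 21 tested neuronal and synaptic genes 3 were higher and 1 lower; 1 was higher without EPZ5676 low replicates 1 or 3, and 2 were without EPZ5676 low replicate 2 or DMSO low replicates 2 or 3.

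Among transcription factors of the immediate early response and AP-1, EGR3, NR4A1, FOSL2 and EGR2 rose, making 4 higher and 0 lower of 23, and 8 and 1 without DMSO low replicate 1. EGR2 lost its call without each library in turn, and FOSL2 without DMSO low replicate 3 and with 17 libraries. The list of MAPK output had 3 increases and 1 decrease among 22, 1 and 0 without any EPZ5676 library or DMSO low replicate 2 and 5 and 2 without DMSO low replicate 1. LIF and CSF1 were the 2 higher genes of 16 in the list of NF-kB and cytokines, with 0 lower; CSF1 lost its call without any single library other than DMSO low replicate 1. In the undifferentiated melanoma state 2 of 15 were higher and 1 lower, and 1 to 2 and 0 to 1 without single libraries. Of 16 integrins 0 were higher and 1 lower, ITGB3, which lost its call without any EPZ5676 library or DMSO low replicate 2.

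Of 15 G1 cyclins and CDK inhibitors 2 were higher and 1 lower, with 1 to 3 higher without single libraries. Sterol synthesis, with 26 tested genes, and amino acid and ER stress, with 25, each had 1 higher and 1 lower; without single libraries sterol synthesis had 0 to 3 higher and 0 to 1 lower, with 0 and 0 without EPZ5676 low replicate 2 and 3 and 1 without DMSO low replicate 1. The stress list had 0 to 2 higher and 0 to 3 lower, with 0 and 0 without EPZ5676 low replicates 2 or 3, 0 and 3 without DMSO low replicate 1 and 2 and 0 without DMSO low replicate 3. Among 13 heat shock genes 0 were called by edgeR, DESeq2 or limma-voom, with 7 at an unadjusted p under 0.05, although 6 were lower without DMSO low replicate 1, and among 6 cancer-testis genes 0 were called by the same tools, with 0 at an unadjusted p under 0.05.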
